A study of Solanum tuberosum with 4 samples.

Results

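Among the spotted cDNA clones of a potato leaf array, 156 had a positive deposited ratio on all 4 arrays and a mean log2 ratio of at least 0.585, which is 1.5-fold if the deposited logarithms are to base 2. The members were chosen by the deposited ratios themselves, so their size and sign are a description, and no test of them is reported. They made up 156 of the 7099 clones with a value on all 4 arrays (2.20%), 156 of the 1480 clones that were positive on every array (10.5%) and 156 of the 11507 clones in the value table (1.36%). Clones carry only an ID, and 0 of the 156 IDs occur in the potato gene table searched (assembly SolTub_3.0), so no member is given a gene or a role here.

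The leaves came from Solanum tuberosum cultivar Désirée, multiplied in vitro and grown in pots for 2 months. Plants were watered with 75 mL of 150 mM NaCl or with an equal volume of tap water. Both treatments shared cultivar, age and sampling on day 3. Each of the 4 arrays set 1 salt RNA against 1 water-control RNA, and the dyes were swapped, with salt labelled by Cy3 for replicates 1 and 3 and by Cy5 for replicates 2 and 4. The labels state 4 biological replicates per treatment drawn from 2 sets of plants, without a link between replicate and set. The RNA is that of whole first and second leaves, so a change in the share of a cell type and a change in RNA per cell cannot be told apart. No defining marker of leaf could be checked, because no clone is named.

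High salt around the roots first limits water uptake and later loads leaves with sodium and chloride. Leaf cells are known to respond by abscisic acid signalling, closure of stomata, synthesis of compatible solutes such as proline, and storage of sodium in the vacuole by sodium/proton antiporters. The sources used here do not say which clones stand for these processes, nor which treatment is the numerator. A positive ratio therefore means more RNA after salt with salt as the numerator, and less RNA after salt with control as the numerator. That the ratios of all arrays run in 1 direction was assumed, because all pairs of arrays correlated positively over the clones with 4 values (r from 0.422 to 0.718, a description over clones that share arrays). Within the members, replicate 1 correlated with replicate 2 at r = 0.542 and replicate 3 with replicate 4 at r = 0.878, and r lay between -0.380 and -0.246 for the other pairs. These values are given as a description, because a limit on the mean itself shapes correlations within the clones it selects.

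Most members lay close above the limit. The mean log2 ratio of the members had a median of 0.726 (1.65-fold) and reached 0.858 at the upper quartile. The mean was at or above 0.8 in 50 members, at or above 1 (2-fold) in 18 and at or above 1.5 in 5. The highest mean was 1.73, or 3.32-fold. On single arrays the members ranged from 0.029 to 3.13, and 40 of the 156 (25.6%) were at or above 0.585 on every array. A further 52 reached that value on 3 arrays, 62 on 2 and 2 on 1. Only STMHY79 and STMDG60 were at or above 1 on each of the 4 arrays.

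The arrays did not contribute equally. The members had a median log2 ratio of 0.638 on replicate 1, 0.724 on replicate 2, 0.748 on replicate 3 and 0.871 on replicate 4. The medians of all 7099 clones with 4 values were 0.035, -0.001, 0.015 and 0.005 on the same arrays. Replicate 4 held the highest value of 70 members (44.9%), against 26.9% of all clones with 4 values. Replicate 1 held the lowest value of 71 members (45.5%), against 28.3% of all clones with 4 values. A member lay above its own 4-array mean on replicate 4 in 112 cases (71.8%) and on replicate 1 in 56 (35.9%), where all clones gave 51.6% and 50.7%. The members were chosen on these same ratios. Of all clones with 4 values, 344 were at or above 0.585 on replicate 4, against 315, 305 and 264 on replicates 1, 2 and 3. A limit on the mean can therefore favour replicate 4, so these shares are a description.

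**Figure D1:**
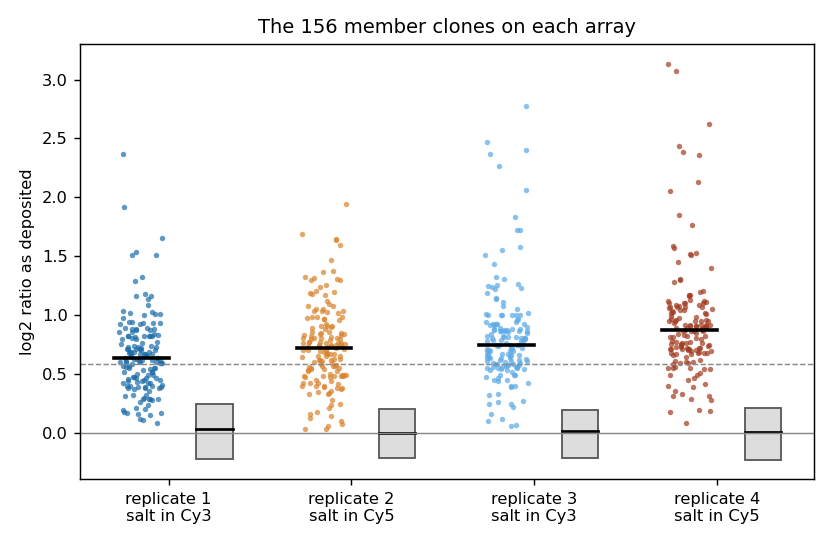
Each point is the deposited log2 ratio of 1 of the 156 members on 1 array (vertical axis, log2 units), with the dye of the salt RNA under each array. Black bars are the members' medians, 0.638, 0.724, 0.748 and 0.871 on replicates 1 to 4, grey boxes span the quartiles of all 7099 clones with 4 values, with their median, and the dashed line is the limit of 0.585.

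The 6 members with the highest means fell into several patterns over the arrays. STMHY79 read 2.37, 1.94, 1.31 and 1.30 on replicates 1 to 4, a mean of 1.73 ± 0.524 (SD, n = 4). STMDG60 read 1.02, 1.08, 2.06 and 2.36, a mean of 1.63 ± 0.684 (SD, n = 4). STMCR18 read 0.838, 0.923, 2.37 and 2.39, a mean of 1.63 ± 0.864 (SD, n = 4). STMHY79 was thus higher on replicates 1 and 2, and STMDG60 and STMCR18 were higher on replicates 3 and 4.

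The other 3 of the 6 were under 0.5 on replicates 1 and 2 and at least 2.40 on replicates 3 and 4. STMGQ20 read 0.201, 0.373, 2.77 and 3.07, a mean of 1.60 ± 1.53 (SD, n = 4). STMGR44 read 0.197, 0.479, 2.47 and 3.13, a mean of 1.57 ± 1.45 (SD, n = 4). STMGN69 read 0.163, 0.327, 2.40 and 2.44, a mean of 1.33 ± 1.26 (SD, n = 4). For these 3 clones the mean describes none of the arrays, since no single value lay within 0.5 of it.

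A pair of further members had the same pattern and are named after their values were seen. STMCS65 read 0.119, 0.128, 2.27 and 2.63, and STMIU09 read 0.212, 0.395, 1.84 and 2.13. These 5 clones were all of the 7099 clones with 4 values that lay under 0.5 on replicates 1 and 2 and at or above 1.5 on replicates 3 and 4. The sources used here do not say whether they carry the same gene. The reverse pattern was shown by 4 of the 7099 clones, of which 3 had a value at or below 0 and were no members. The member was STMER63, which is also named after its values were seen, with ratios of 1.65, 1.65, 0.218 and 0.275.

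**Figure D2:**
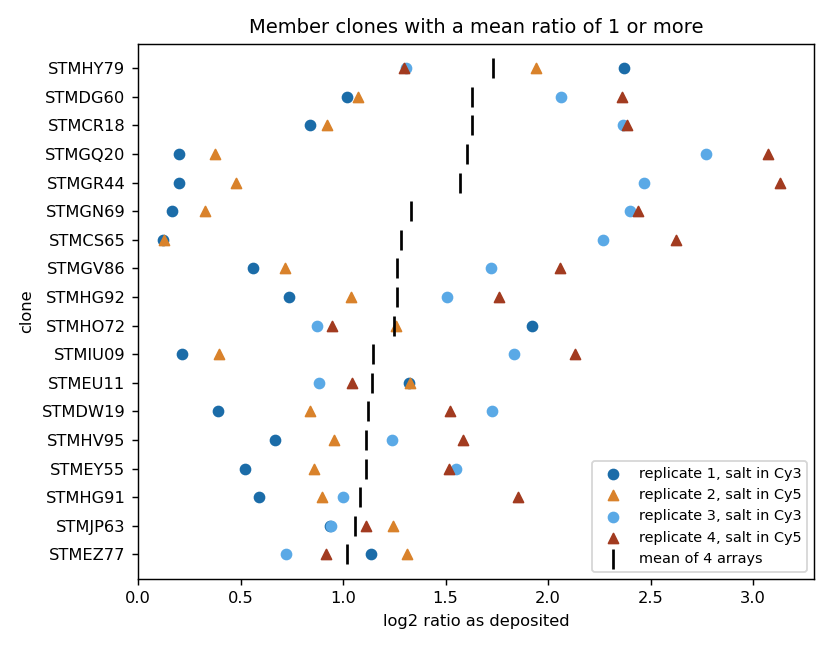
Deposited log2 ratios (horizontal axis) of the 18 members with a mean of 1 or more, 1 clone per line, with circles for arrays with salt in Cy3, triangles for arrays with salt in Cy5 and a black bar for the mean of the 4 arrays. STMGQ20, STMGR44, STMGN69, STMCS65 and STMIU09 lie under 0.5 on replicates 1 and 2 and above 1.5 on replicates 3 and 4, while STMHY79 stays above 1 on every array.

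Members thus overlap with the clones whose ratio differs between these pairs of arrays. The mean of replicates 1 and 2 differed from that of replicates 3 and 4 by at least 1 in 16 of 156 members (10.3%) and in 99 of 7099 clones with 4 values (1.39%). Of the 16 members, 11 were higher on replicates 3 and 4 and 5 on replicates 1 and 2, whereas of the 99 clones 38 were higher on replicates 3 and 4 and 61 on replicates 1 and 2. The pairs come from earlier results on these arrays and not from the labels, and this difference was not tested. The limit on the mean and the demand for positive ratios act on these same values. The 99 clones are not limited in this way, so the shares and directions are a description.

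Spread between arrays was larger in the members with the largest means. The demand for 4 positive values bounds the SD more tightly at smaller means, so this is a description and was not tested. The SD over the 4 arrays had a median of 0.232 in the members, against 0.195 in all clones with 4 values. It was 0.579 in the 18 members with a mean of at least 1 and 0.219 in the 138 below. An SD of 0.5 or more was found in 12 of the 18 and in 17 of the 138, and in 263 of 7099 clones with 4 values (3.70%). In 42 members (26.9%) the SD exceeded 50% of the mean. The 380 clones that met the same rule on the negative side had a median SD of 0.241, close to that of the members. Their upper quartile of 0.346 and highest SD of 0.825 were below the 0.426 and 1.53 of the members.

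The members with the smallest spread were of moderate size. STMDQ45 read 0.570, 0.594, 0.615 and 0.604, a mean of 0.596 ± 0.019 (SD, n = 4). STMCN87 read 0.681, 0.692, 0.749 and 0.701, a mean of 0.706 ± 0.030 (SD, n = 4). Their 4 arrays differed by at most 0.045 and 0.068, where the median member spanned 0.526 between its lowest and highest array. The largest spread belonged to STMGQ20 and STMGR44, which spanned 2.87 and 2.94.

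**Figure D3:**
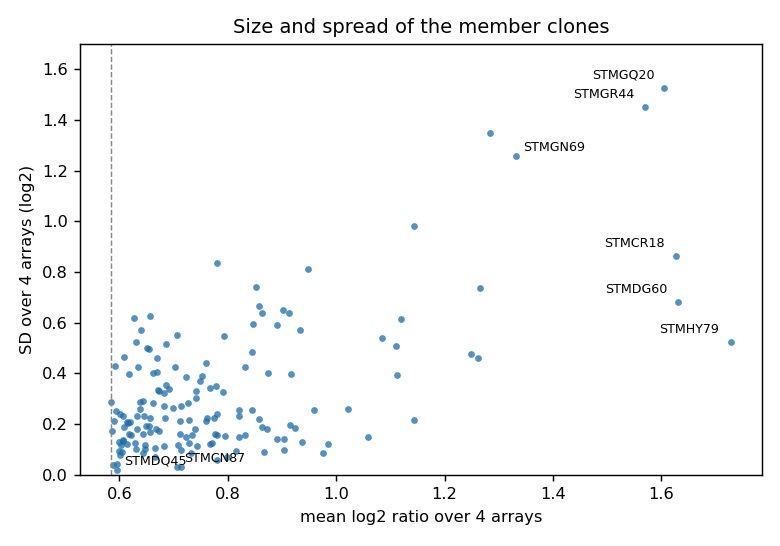
SD over the 4 arrays (vertical axis, log2 units) against the mean log2 ratio (horizontal axis) for the 156 members, with the limit of 0.585 dashed. STMGQ20 and STMGR44 have the largest SDs, 1.53 and 1.45, at means close to that of STMDG60, whose SD is 0.684, and STMDQ45 and STMCN87 lie at the bottom.

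By Dixon's test for an outlying value, 5 of 156 members (3.21%) had 1 array beyond the limit for 4 values, a share close to the 264 of 7099 clones with 4 values (3.72%). The test needs a wide gap in 4 values, so few passes do not show that the arrays agree. The lowest array of a member was under 0.2 in 23 members, of which 19 had 1 such array and 4 had 2. It was under 0.1 in 7 members, of which 6 had 1 such array and 1 had 2.

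The limit on the mean cuts through a continuous range of values. The members nearest to it were STMHG76, at 0.288, 0.613, 0.475 and 0.964 with a mean of 0.585, and STMGU48, at 0.490, 0.394, 0.711 and 0.750 with a mean of 0.586. Just outside lay STMEN79, at 0.684, 0.705, 0.378 and 0.563 with a mean of 0.583, and STMED56, at 0.372, 0.555, 0.672 and 0.726 with a mean of 0.581. A further 10 clones had a mean above the limit but a value at or below 0, of which 6 were at or below 0 on replicate 3. The largest of them, STMCR06, read 2.55, 2.61, -0.335 and -0.693 and is named after its values were seen. Another 8 clones had only 3 values, all positive with a mean at the limit or above, and 5 of these lacked replicate 4.

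The rule fixes a positive ratio in both dye orientations, but not which orientation is higher. Each replicate was labelled in a single orientation, so a difference between orientations and a difference between biological replicates cannot be told apart. The mean over replicates 2 and 4, with salt in Cy5, exceeded the mean over replicates 1 and 3, with salt in Cy3, in 112 of 156 members (71.8%) and in 3782 of 7099 clones with 4 values (53.3%). The median difference, Cy5 minus Cy3, was 0.125 in the members and 0.019 in all clones with 4 values. Replicate 2 was above replicate 1 in 112 members (71.8%) and replicate 4 above replicate 3 in 111 (71.2%), against 52.9% and 52.8% of all clones. Both arrays with salt in Cy5 were above both with salt in Cy3 in 31 members (19.9%; 18.1% of all clones), and both were below in 12 (7.69%; 18.8% of all clones). Without replicate 1 the share of members with the higher mean in Cy5 was 53.8% with a median difference of 0.026, and without replicate 4 it was 54.5% with 0.022. Without replicate 2 or 3 the share was 69.9% or 70.5%. With 1 array left out, the orientations are no longer balanced over replicates 1 and 2 and replicates 3 and 4. These values therefore also hold part of the difference between those pairs. Of the members, 102 (65.4%) were higher on replicates 3 and 4.

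The difference between orientations was larger in clones with larger ratios. Among clones positive on every array, the median Cy5 minus Cy3 difference was 0 in the 413 clones with a mean under 0.2 and 0.033 in the 672 from 0.2 to 0.4. It was 0.057 in the 239 from 0.4 to the limit, 0.114 in the 138 members with a mean under 1 and 0.185 in the 18 members at or above 1. The share with the higher mean in Cy5 was 49.9%, 56.4%, 60.3%, 69.6% and 88.9% in the same order. The median difference without its sign rose too, from 0.075 in the lowest band to 0.228 in the highest. The demand for 4 positive values bounds the size of the difference more tightly at smaller means. The bands were cut on the mean of the same ratios, and such a cut can favour arrays with more high ratios. Of all clones with 4 values, 305 and 344 were at or above 0.585 on replicates 2 and 4, and 315 and 264 on replicates 1 and 3. The rise over the bands is therefore a description and was not tested. The size of the difference was small beside the ratios: it was at least 0.5 in either direction in 8 members (5.13%) and in 5.31% of all clones with 4 values.

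**Figure D4:**
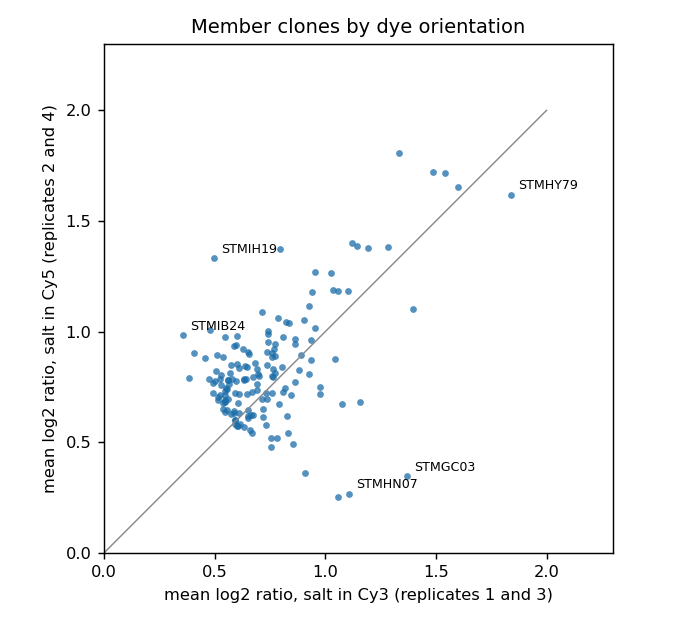
Mean log2 ratio of each of the 156 members over the arrays with salt in Cy5 (vertical axis) against that over the arrays with salt in Cy3 (horizontal axis), with the line of equality. Of the points, 112 lie above the line, and STMGC03 and STMHN07 lie farthest below it.

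Single members departed from equality far more. STMGC03 read 1.16 and 1.58 with salt in Cy3 and 0.031 and 0.662 with salt in Cy5, a Cy5 minus Cy3 difference of -1.02 ± 0.266 (limma SE, n = 4). STMHN07 read 1.29 and 0.923 with salt in Cy3 and 0.142 and 0.393 with salt in Cy5, a difference of -0.84 ± 0.202 (limma SE, n = 4). The 2 orientations did not overlap in either clone, which were both lower with salt in Cy5. In the other direction, STMIH19 read 0.931 and 0.058 with salt in Cy3 and 1.60 and 1.07 with salt in Cy5, a difference of 0.84 ± 0.329 (limma SE, n = 4). STMIB24 read 0.262 and 0.450 with salt in Cy3 and 1.19 and 0.776 with salt in Cy5, a difference of 0.63 ± 0.204 (limma SE, n = 4). Both were higher with salt in Cy5, again with no overlap.

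The dye difference is a contrast that the mean of 4 values does not contain, although the demand for 4 positive values bounds it. Because each replicate was labelled in a single orientation, this contrast also holds differences between biological replicates. Fitted by limma over the 7099 clones with 4 values, it passed a Benjamini-Hochberg adjusted p of 0.05 for 0 members, with 0% of all tested clones called and a lowest adjusted p of 0.743. At an unadjusted limma p under 0.05 it passed for 5 members (3.21%), 3 higher and 2 lower with salt in Cy5, against 5.93% of all tested clones. This fit has 2 residual degrees of freedom per clone, and its residual holds the difference between replicates 1 and 2 and replicates 3 and 4, so 0 calls do not show equal values. With those pairs as blocks, limma called 9 members (5.77%), 5 higher and 4 lower with salt in Cy5, against 5.79% of all tested clones, a share close to that background. STMGC03, STMHN07, STMIH19 and STMIB24 were among the 9, with limma adjusted p = 2.52e-07, 5.84e-05, 5.84e-05 and 0.00624. In the fit without blocks their limma adjusted p was 0.743, 0.743, 0.798 and 0.743. The fit with blocks leaves 1 residual degree of freedom per clone. It gave every member the same SE of 0.164, so its calls follow the size of the difference alone. These 4 clones were picked for that size, so their calls add nothing to the choice.

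Values that took no part in a choice, beyond being present, were read by leaving arrays out. Only clones with 4 values were used. Those with a positive ratio on 3 arrays and a mean over them of at least 0.585 were counted. They numbered 180, 173, 178 and 145 when replicate 1, 2, 3 or 4 was left out. On the array left out, 98.3%, 94.2%, 94.4% and 97.2% of them were positive, against 53.8%, 49.8%, 51.9% and 50.6% of all clones with 4 values. Their median there was 0.533 on replicate 1, 0.560 on replicate 2, 0.632 on replicate 3 and 0.767 on replicate 4, from medians of 0.745, 0.726, 0.714 and 0.714 on the arrays that chose them. The median was lower than on the choosing arrays for replicates 1, 2 and 3 and higher for replicate 4. Each array left out has a partner among the choosing arrays with which it correlated at r of 0.704 or 0.718 over clones, so it is not wholly separate from the choice.

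The same was done by dye orientation. With both arrays of salt in Cy3 choosing by the same rule, 183 clones were found, of which 90.2% had a positive mean over the arrays with salt in Cy5, with a median of 0.631 against 0.714 on the choosing arrays. With salt in Cy5 choosing, 218 clones were found, of which 98.2% had a positive mean over the arrays with salt in Cy3, with a median of 0.558 against 0.744. Positive means made up 50.2% and 54.0% of all clones with 4 values on the arrays read. In both cases 101 clones also reached 0.585 on the other orientation, 55.2% of the first set and 46.3% of the second. Each choosing array again has a partner among the arrays read, with r of 0.704 or 0.718 over clones. The arrays read are therefore not wholly separate from the choice.

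**Figure D5:**
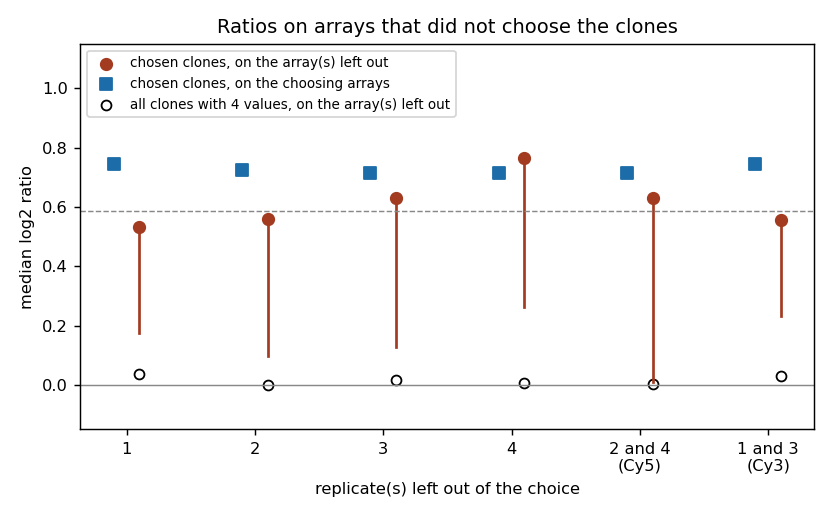
Median log2 ratio (vertical axis) of clones chosen on the other arrays, shown on the choosing arrays (squares) and on the array or arrays left out (filled circles, with a line down to the 10th percentile), beside the median of all 7099 clones with 4 values (open circles). The medians of the chosen clones on arrays left out run from 0.533 to 0.767, and those of all clones lie between -0.001 and 0.035.

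Clone IDs can be grouped by their first 4 letters, and members occurred in each of these series. The STMC series held 31 members of 1125 clones with 4 values (2.76%), STMG 29 of 1307 (2.22%), STMI 24 of 1066 (2.25%) and STMH 23 of 940 (2.45%). STME held 17 of 1021 (1.67%), STMD 16 of 858 (1.86%) and STMJ 11 of 683 (1.61%), and the small STMF and STMB series held 3 of 71 and 2 of 28. All of the large series therefore lay between 1.61% and 2.76%, around the 2.20% of all clones with 4 values. By the first 5 letters the members fell into 95 of 158 blocks, with at most 4 in a block.

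Consecutive IDs occurred among the members in 3 pairs, which are named for that reason and not by size. STMHG91 read 0.590, 0.896, 0.998 and 1.85 and STMHG92 read 0.734, 1.04, 1.51 and 1.76, so both were lowest on replicate 1 and highest on replicate 4. These were also the most frequent extremes among the members, with 45.5% lowest on replicate 1 and 44.9% highest on replicate 4. STMCC17 read 0.514, 0.679, 0.699 and 0.679, and STMCC18 read 0.554, 0.673, 0.789 and 0.917. STMII86 read 0.616, 0.904, 0.864 and 1.07, whereas STMII87 read 0.704, 0.078, 1.11 and 0.646. The last pair differed most on replicate 2. STMCC17 and STMCC18 differed most on replicate 4, and STMHG91 and STMHG92 both rose from replicate 1 to replicate 4. Whether neighbouring IDs share a gene or a place on the slide was not analysed here.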

How the data were processed

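Leaf RNA was hybridised to 4 2-colour arrays. The authors labelled 15 µg of each RNA and left out RNA with an integrity number under 7, per the labels' protocols. The deposited values are 1 log ratio per clone and array, read as log2. Base 2 is assumed from their range, and the sources used here name no scanner, background correction, normalization, spot filter or numerator. The other deposited file holds the p-value of each clone in the authors' one-sample t-test, as its header states. Spot signal is unknown, and the 4 arrays limit the precision.

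Ratios were used as deposited, and blank cells were left missing. limma 3.58.1 (R 4.3.3; lmFit and eBayes, two-sided, Benjamini-Hochberg over all tested clones, threshold 0.05) tested the mean over clones with at least 3 values and the dye difference over clones with 4. The fit of the mean uses the ratios that chose the members, so its calls, and the authors' p-values, are not reported for them. Other values were computed with Python 3.11.15 and pandas 2.3.3. Members, tests and the rule for named clones were chosen with earlier results of these data known. The rule took the 6 largest means, the 2 clones on each side of the limit, the 2 smallest and 2 largest SDs, and the 2 largest dye differences in each direction. Other clones are said to be named after their values were seen, or for consecutive IDs. Alternatives covered the limit, missing values, centring, scaling, the variance model and each replicate left out. The 4 arrays form 1 group, and p-values of the fits without blocks measure the spread between these arrays. The dye fit with blocks gave every member the same SE, so its p-values do not measure a clone's own spread. Several clones may carry 1 gene, so clones cannot be counted as genes.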

Additional observations from a re-analysis of the deposited data

How the results depend on the processing

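Of 156 members, 148 also met the rule with each array centred on its median (148 clones in all), and 155 with arrays scaled to 1 SD (157 in all). Without 1 replicate, 145 to 180 of the clones with 4 values met it, including 126 to 144 of the members. A limit of 0.5 gave 239 clones and a limit of 1 gave 18, by construction. Allowing 3 values gave 164, and the mean alone 166. The dye difference was called for 0 of all clones in limma under each setting, except 1 clone without replicate 2 and 1 without replicate 4 (0 to 1 over replicates left out), and 411 clones, 9 of them members, with replicates 1 and 2, and 3 and 4, as blocks. That setting was chosen after seeing earlier results. For the same 156 members, not chosen again, the median mean ratio stayed between 0.691 and 0.777 and the median SD between 0.221 and 0.240. This held with arrays centred, scaled or left out in turn, and the choice of these clones itself limits how far such values move. The median Cy5 minus Cy3 difference fell from 0.125 to 0.026 without replicate 1 and 0.022 without replicate 4, and was 0.124 to 0.178 under the other settings. With a replicate left out, the difference also holds part of that between replicates 1 and 2 and replicates 3 and 4. The cause of the fall was not tested. By Dixon's test, 0 of 24 results checked had an array standing apart, where chance gives about 1 in 20. With every sign turned, each ratio reads negative and each difference changes sign. With no spot signal in use, limits set by depth are unknown.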
